A study of Mus musculus with 5 samples.

Results

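Kupffer cells are the resident macrophages of the liver, and 10 genes that mark them are described here in livers of mice on a high-fat diet, labelled as with or without deletion of Heg1 by Lyve1-Cre. The 10 genes were taken by symbol from the deposited expression table of 33589 rows: Clec4f, Vsig4, Timd4, Cd5l, Marco, Adgre1, C1qa, C1qb, C1qc and Cd163. All 10 had 1 row each, and all 10 had a mean of at least 1 FPKM (fragments scaled to transcript length and to library size), the filter used for testing. They were chosen by name as genes of resident liver macrophages, with earlier results of these data known, and the rule sets no threshold on measured values.

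There were 3 livers of genotype Lyve1-Cre;Hegfl/fl, called knockout 1 to 3. They were set against 2 livers of genotype Hegfl/fl, called control 1 and 2. Males of 6 weeks had received the diet for 4 weeks in both groups, so that the floxed allele and the diet were shared by all 5 livers, and neither a Cre-only liver nor another diet was part of the comparison. The Lyve1 promoter drives Cre in lymphatic and liver sinusoidal endothelium, and Lyve1 is also carried by some macrophages of other tissues. The series title names hepatocytes, the labels give liver as the tissue, and the markers of many liver cell types were present, so the values are read as those of whole liver. In whole liver a lower value of a macrophage gene can mean fewer macrophages or less RNA per macrophage, and the values here cannot tell these apart.

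Kupffer cells line the sinusoids, in contact with the endothelium, and clear particles, microbes, lipoproteins and spent red cells from portal blood. Their identity is kept by signals from neighbouring endothelial, stellate and hepatocyte cells, among them CSF1, TGF-beta family ligands and Notch ligands, which act through factors such as LXR-alpha, ID3 and SPI-C. In fatty liver, macrophages recruited from blood monocytes can take their place, and TIMD4 is known as a marker of the long-lived resident cells. CLEC4F, a galactose-binding lectin, is close to exclusive to Kupffer cells in rodents, whereas C1q, F4/80 (the product of Adgre1) and CD163 are shared with macrophages of other organs.

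The members lay on 7 chromosomes (mm10, GENCODE M21), all as protein-coding genes that no other annotated gene overlapped. C1qa (136895917 to 136898803), C1qc (136889804 to 136893065) and C1qb (136880129 to 136886187) lie side by side on the minus strand of chromosome 4. This cluster spans 18.7 kb and holds these 3 genes alone. Clec4f (83644542 to 83656187, minus strand) and Cd163 (124304656 to 124330527, plus strand) are both on chromosome 6. The others are Marco on chromosome 1 (120474538 to 120505024, minus strand), Cd5l on chromosome 3 (87357881 to 87371073, plus strand), Timd4 on chromosome 11 (46810800 to 46844332, plus strand), Adgre1 on chromosome 17 (57358691 to 57483527, plus strand) and Vsig4 on the X chromosome (96247203 to 96293438, minus strand).

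RefSeq start regions were at hand for 8 of the 10 members (GRCm38.p6, the assembly of mm10), and 4 are printed here: Marco, the member whose pattern stood apart, and Vsig4, C1qb and C1qc, which moved with the rest. Each runs from 250 bases before to 50 bases after the RefSeq start, 5′ to 3′ on the strand of the gene. Capitals mark GAGGAA or its reverse complement TTCCTC, the core letters bound by PU.1, a factor of the macrophage lineage. The regions are chr1:120504975-120505274 for Marco, chrX:96293389-96293688 for Vsig4, chr4:136886151-136886450 for C1qb and chr4:136892865-136893164 for C1qc, all on the minus strand.
Marco: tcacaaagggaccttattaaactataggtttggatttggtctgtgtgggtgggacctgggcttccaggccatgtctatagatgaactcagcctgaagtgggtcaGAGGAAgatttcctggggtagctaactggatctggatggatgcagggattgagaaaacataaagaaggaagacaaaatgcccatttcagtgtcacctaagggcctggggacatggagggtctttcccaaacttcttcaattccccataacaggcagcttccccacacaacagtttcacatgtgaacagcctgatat
Vsig4: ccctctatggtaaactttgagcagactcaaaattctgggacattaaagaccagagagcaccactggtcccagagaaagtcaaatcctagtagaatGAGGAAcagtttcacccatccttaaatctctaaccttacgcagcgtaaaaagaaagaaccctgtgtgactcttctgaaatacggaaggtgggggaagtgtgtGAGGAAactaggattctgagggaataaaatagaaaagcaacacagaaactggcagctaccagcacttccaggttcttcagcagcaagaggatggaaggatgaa
C1qb: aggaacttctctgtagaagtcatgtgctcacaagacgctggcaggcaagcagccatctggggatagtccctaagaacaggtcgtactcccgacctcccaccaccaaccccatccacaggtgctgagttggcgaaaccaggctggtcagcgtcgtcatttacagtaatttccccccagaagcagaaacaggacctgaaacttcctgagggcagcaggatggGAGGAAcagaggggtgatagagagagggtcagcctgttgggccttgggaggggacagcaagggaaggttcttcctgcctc
C1qc: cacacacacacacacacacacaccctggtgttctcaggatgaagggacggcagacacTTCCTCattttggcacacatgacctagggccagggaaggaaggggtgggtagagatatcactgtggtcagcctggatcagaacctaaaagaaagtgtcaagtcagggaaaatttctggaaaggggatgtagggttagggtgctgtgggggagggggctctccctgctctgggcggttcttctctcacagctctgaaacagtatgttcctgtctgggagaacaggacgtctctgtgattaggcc

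GAGGAA, searched on both strands, was found in 5 of the 8 member promoters, namely those of Marco, Vsig4, Cd5l, C1qb and C1qc, against 28.3% of all 32851 promoters of 300 bases in the table. It began 146 bases before the start in Marco, 155 and 53 bases before it in Vsig4, 30 bases before it in C1qb and 193 bases before it in C1qc. A match is a run of letters, not a measured binding site. Marco, which departed from the other members, and Vsig4, which did not, both held GAGGAA. All 4 printed regions hold it, whereas those of Clec4f, Timd4 and Cd163, which are not printed, do not.

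Over the whole table, FPKM summed to between 797692 and 820498 per library and 10820 genes passed the filter. Sequencing depth is unknown. Heg1 had 0.45, 0.43 and 0.50 FPKM in the knockouts and 0.48 and 0.35 FPKM in the controls, so a whole-gene value in whole liver did not separate the genotypes (exon coordinates of the floxed part are not given in the sources used here). Lyve1, whose promoter drives the Cre, had 3.90, 7.32 and 10.5 FPKM in knockouts and 7.34 and 8.92 FPKM in controls. Knockout 1 stood apart in red cell transcripts: Hbb-bs had 423 FPKM there, 62.5 and 30.2 FPKM in the other knockouts, and 22.9 and 24.8 FPKM in the controls. The labels give no batch, and do not state that each library came from its own animal, and the errors given here therefore describe the scatter of these 5 libraries.

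Kupffer cell genes did not separate knockout from control livers. In all 10 genes the knockout mean was above the control mean, but in none were the groups free of overlap, against 25.3% of the 10820 tested genes whose groups did not overlap. A single library stood out instead: control 1 was the lowest of the 5 livers in 8 of the 10 genes, which it was, alone, in 27.9% of all tested genes. Control 2 lay among the knockouts in most of them. The highest liver exceeded the lowest by at least 1.5 times in 10 of 10 members, against 36.7% of all tested genes. Marco departed from the other members, with a level in knockout 3 that was 4.54 times that of the next highest liver.

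**Figure D1:**
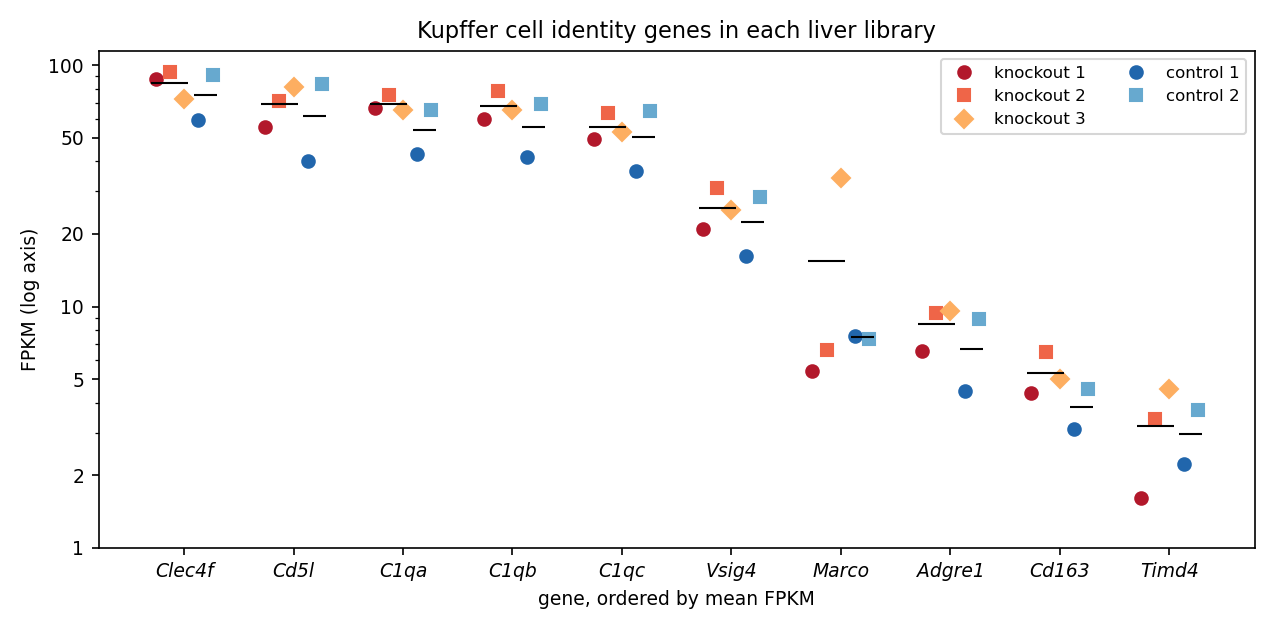
FPKM of the 10 Kupffer cell genes (log axis) in 3 knockout and 2 control livers, 1 point per library, with black bars at the group means. Control 1 is the lowest point in 8 of the 10 genes, and Marco in knockout 3 stands at 34.2 FPKM, far above the other 4 livers.

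Levels per transcript length spanned from Clec4f, with a mean of 80.6 FPKM over the 5 livers (SD 14.6), to Timd4, with 3.10 FPKM (SD 1.18). Cd5l averaged 66.1 FPKM (SD 18.4), C1qa 63.1 FPKM (SD 12.2) and C1qb 62.7 FPKM (SD 13.5). These 3 could not be ordered, since Cd5l exceeded C1qa in 2 of 5 livers and C1qa exceeded C1qb in 2 of 5. Clec4f exceeded Cd5l in 4 of 5 livers. C1qc, at 53.4 FPKM (SD 11.6), lay below C1qb in every liver and above Vsig4, at 24.4 FPKM (SD 5.89), in every liver. Marco and Adgre1 had no fixed order, Marco being higher in 2 of 5. Adgre1 exceeded Cd163, and Cd163 exceeded Timd4, in every liver.

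Among the receptors that bind sugars and other ligands, Clec4f had 87.5, 93.7 and 72.2 FPKM in knockouts and 59.1 and 90.6 FPKM in controls. The knockout mean was 84.5 ± 11.0 FPKM and the control mean 74.9 ± 22.3 FPKM (SD, n = 3 and 2). Its 2 controls differed by more than any pair of knockouts did. The log2 fold change (difference of mean log2(FPKM + 1), knockout minus control) was 0.20 with a standard error of 0.20 and a 95% interval of -0.29 to 0.68, and the limma adjusted p was 0.834. Cd163, the hemoglobin-haptoglobin scavenger receptor, had 4.37, 6.46 and 5.0 FPKM in knockouts and 3.12 and 4.56 FPKM in controls. Control 2 lay between knockout 1 and the other knockouts. Cd163 had a fold change of 0.38 (SE 0.20, interval -0.10 to 0.85, limma adjusted p = 0.726).

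Marco, a collagenous scavenger receptor of resident macrophages that binds bacteria and particles, had 5.42, 6.60 and 34.2 FPKM in knockouts and 7.54 and 7.34 FPKM in controls. The controls were nearly equal, knockouts 1 and 2 lay below both, and knockout 3 lay far above all others. Its log2 fold change of 0.51 had a standard error of 0.69 and an interval of -1.16 to 2.17 (limma adjusted p = 0.873), and it turned to -0.27 without knockout 3. Across 10798 tested genes with a symbol of their own, 4 were highest in knockout 3 by a factor as large as that of Marco or larger, or 0.037%, and 16 were highest in any 1 library by such a factor. The others of the 4 were Bach2os (5.89 FPKM in knockout 3, at most 0.49 in the other livers), Foxq1 (27.2 FPKM, at most 5.51) and Igkv12-46 (3.89 FPKM, at most 0.79), named after their values were seen. The largest such factor among the other 9 Kupffer cell genes was 1.29. Of the myeloid genes beside them, Itgam, which encodes the integrin CD11b, was also highest in knockout 3, with 0.39, 0.32 and 1.09 FPKM in knockouts and 0.30 and 0.32 FPKM in controls. Itgam was chosen after its values were seen and lay under the filter. Of the pan-macrophage genes described below, Itgam, Cybb, Lyz2 and Cd14 were highest in knockout 3, and the others were highest in other livers.

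C1qa, C1qb and C1qc encode the 3 chains of C1q, the recognition subunit of the classical pathway, which in the body is made mainly by macrophages. C1qa had 66.6, 75.5 and 65.32 FPKM in knockouts and 42.65 and 65.34 FPKM in controls. Control 1 stood alone at the low end, and the groups overlapped through knockout 3 and control 2, which were nearly equal. C1qa had the smallest unadjusted p of the 10 genes, 0.082, with a fold change of 0.38 (SE 0.18, interval -0.06 to 0.82) and a limma adjusted p of 0.718. C1qb had 59.9, 77.8 and 65.4 FPKM in knockouts and 41.5 and 68.9 FPKM in controls. C1qc had 49.6, 63.3 and 53.05 FPKM in knockouts and 36.3 and 64.8 FPKM in controls. Control 2 was above 2 of 3 knockouts for C1qb and above all 3 for C1qc, and the fold changes were 0.33 (SE 0.22) and 0.18 (SE 0.24).

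The 3 C1q chains kept close proportions, though some other pairs of members did nearly as well. The ratio of C1qb to C1qa was between 0.899 and 1.05 over the 5 livers, a 1.17-fold range. That of C1qc to C1qa was between 0.744 and 0.992, a 1.33-fold range. The range was 1.39-fold for Cd163 to Clec4f, 1.45-fold for Vsig4 to Clec4f and up to 7.65-fold for Marco to Clec4f. The ratio of C1qc to C1qa was 0.744, 0.838 and 0.812 in knockouts and 0.851 and 0.992 in controls, the only 1 of the 11 ratios computed whose groups did not overlap. It was not tested. Vsig4, the complement receptor CRIg that binds C3 fragments and takes up opsonized microbes from blood, had 21.0, 31.0 and 25.1 FPKM in knockouts and 16.2 and 28.5 FPKM in controls. Its fold change was 0.23 (SE 0.26, interval -0.39 to 0.84, limma adjusted p = 0.848), and here too control 2 exceeded 2 of the 3 knockouts.

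Cd5l, a secreted scavenger-receptor protein also called AIM, had 55.35, 70.8 and 81.0 FPKM in knockouts and 39.9 and 83.5 FPKM in controls. Control 2 was the highest liver and control 1 the lowest, so all 3 knockouts lay between the controls (fold change 0.24, SE 0.31, limma adjusted p = 0.870). Adgre1, the adhesion receptor that carries the F4/80 epitope, had 6.51, 9.40 and 9.57 FPKM in knockouts and 4.48 and 8.90 FPKM in controls (fold change 0.35, SE 0.28, limma adjusted p = 0.792). Timd4, a phosphatidylserine receptor for dying cells, had 1.61, 3.41 and 4.55 FPKM in knockouts and 2.23 and 3.71 FPKM in controls. Both controls lay inside the range of the knockouts. Timd4 had the smallest fold change, 0.04 (SE 0.34, interval -0.77 to 0.84, limma adjusted p = 0.986), and its sign turned under median-of-ratios scaling (-0.01), quantile normalization (-0.07) and length correction (-0.04).

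No member passed the test over all genes. In limma, with adjustment by Benjamini-Hochberg, 0 of the 10 members were called at an adjusted p below 0.05, and 0 of 10820 genes, 0% (smallest adjusted p of all genes 0.587). At an unadjusted p below 0.05 there were 0 of 10 members, against 7.00% of all tested genes, and 5.29% of them in the upward direction. The fold change was above 0 in 10 of 10 members and in 64.2% of all tested genes, with Timd4 turning below 0 under the 3 other scalings above. The median over the members was 0.281, and over all tested genes 0.061. With median-of-ratios scaling, quantile normalization and length correction the share of all genes above 0 was 50.7%, 49.4% and 50.8%, that of members 9 of 10 each time, and the median of the members 0.214, 0.238 and 0.224. All 10 intervals spanned 0, and they leave room for differences of either sign.

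The positive fold changes of most members rested on control 1, and that of Marco on knockout 3. Of the 30 knockout values of the members, 27 were above control 1 and 11 were above control 2. All 3 knockouts exceeded control 1 in 8 genes and exceeded control 2 in 0 genes, and all 3 lay below control 2 in 2 genes, Cd5l and C1qc. Without control 1 the median was -0.093 and 3 of 10 members, Marco, C1qa and Cd163, were above 0. Without control 2 it was 0.604 and 10 of 10 were above 0. In both cases a lone control is assumed to vary like the knockouts.

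**Figure D2:**
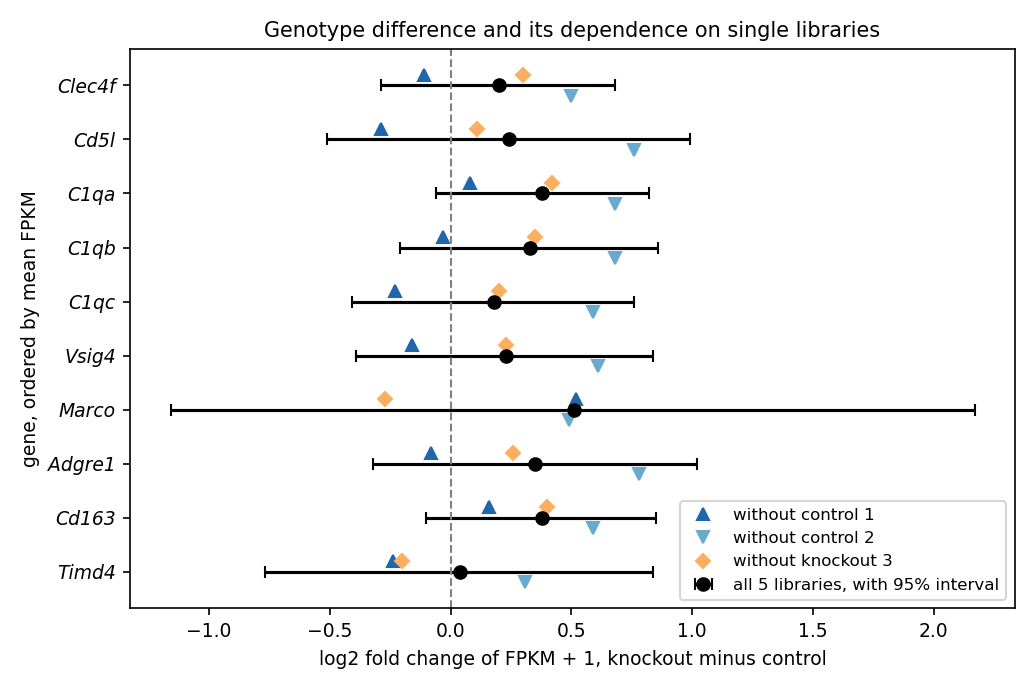
Log2 fold change of FPKM + 1 (knockout minus control) of each Kupffer cell gene with all 5 libraries and its 95% interval from limma, and the same value without control 1, without control 2 and without knockout 3. All 10 intervals span 0. Without control 1, 7 of 10 values lie below 0, the sign of Timd4 also turns under other scalings, and Marco turns to -0.27 without knockout 3.

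Most members shared the low level of control 1, Marco being an exception. They differed most in knockouts 1 and 3, above all through Marco and, to a lesser degree, Clec4f and Timd4. Relative to its own mean over the 5 livers on the log2(FPKM + 1) scale, the average member stood at -0.18, 0.20 and 0.31 in knockouts 1 to 3 and at -0.49 and 0.15 in controls 1 and 2. Without Marco this average was -0.12, 0.28 and 0.15 in knockouts and -0.51 and 0.20 in controls, so that knockout 3 was the highest liver with Marco and knockout 2 without it. By gene, 5 members were highest in knockout 2, 3 in knockout 3 and 2 in control 2. In control 1 all 10 members were below their own mean, from -0.66 in Cd5l to -0.29 in Timd4 and Marco, with an SD between members of 0.13. For Marco that mean was raised by knockout 3, and control 1, at 7.54 FPKM, lay above every liver but knockout 3. Timd4 was lowest in knockout 1, at 1.61 FPKM. Without Marco the SD between members was 0.22, 0.09 and 0.19 in knockouts and 0.11 and 0.12 in controls, and with it 0.54 in knockout 3. The root mean square difference from the average of the other 9 members was 0.092 for Adgre1, the member nearest to it, between 0.149 and 0.275 for the other 8 and 0.869 for Marco.

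**Figure D3:**
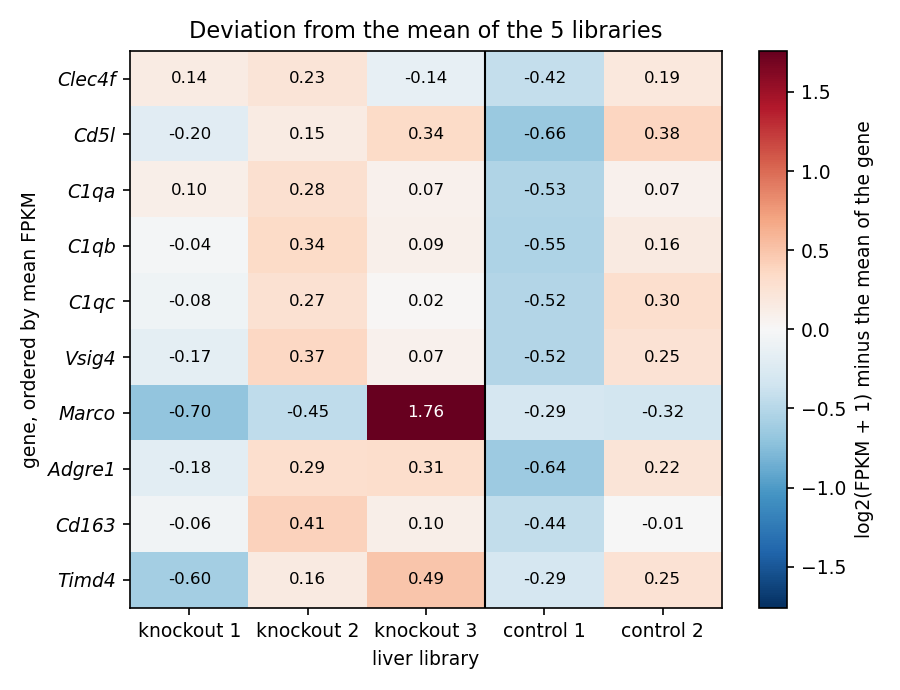
Deviation of log2(FPKM + 1) of each Kupffer cell gene (rows) from its mean over the 5 liver libraries (columns, knockouts left of the line). Control 1 is below 0 in all 10 rows, and Marco runs from -0.70 in knockout 1 to 1.76 in knockout 3. In the Marco row every liver but knockout 3 is below 0, and control 1 is the second highest.

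Ratios between members, which 1 scaling factor per library leaves as they are, showed a second pattern inside the knockouts. Of 7 ratios of other members to Clec4f, 7 were highest in knockout 3 and 7 lowest in knockout 1, and all share the same Clec4f values as denominator. Some of these orders were near ties. Cd163 to Clec4f was 0.0692 in knockout 3 and 0.069 in knockout 2, and 0.0499 in knockout 1 and 0.0503 in control 2. The ratio of Timd4 to Clec4f was 0.0184, 0.0364 and 0.0630 in knockouts and 0.0377 and 0.0409 in controls. Its log2 difference was -0.17 (exact two-sided permutation p = 0.7). Knockouts 1 and 3 differed 3.42-fold in it and lay on either side of both controls. The ratio of Marco to Vsig4 was 0.258, 0.213 and 1.36 in knockouts and 0.464 and 0.257 in controls, a log2 difference of 0.29 (exact permutation p = 0.9). By contrast the ratio of summed C1q chains to Clec4f stayed between 2.01 and 2.54, a 1.26-fold range, with a log2 difference of 0.11 (exact permutation p = 0.5). With 10 splits of the 5 livers the smallest p these tests allow is 0.1, and the direction of the Timd4 and Marco ratios depended on single livers: without knockout 1 the Timd4 difference was 0.285 and without knockout 3 it was -0.602, and the Marco difference was -0.561 without knockout 3 and -0.139 without control 2. Quantile normalization, which can change ratios, gave -0.303 for Timd4 to Clec4f.

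**Figure D4:**
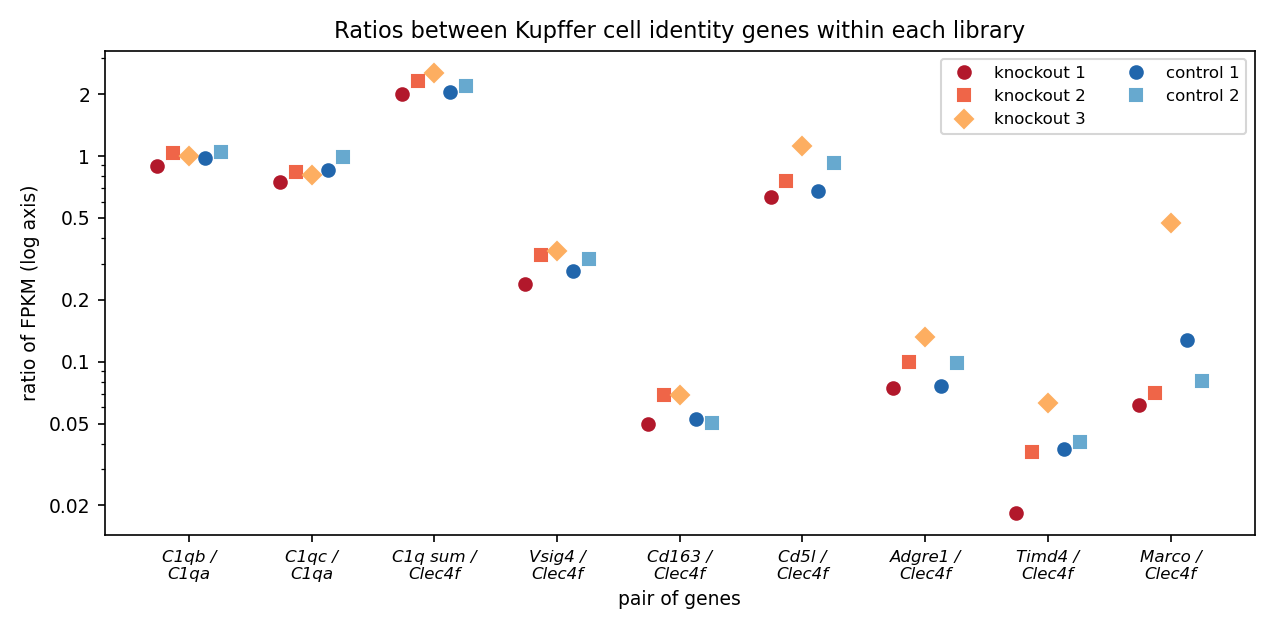
Ratios of FPKM between Kupffer cell genes within each liver library (log axis), knockouts left of controls in each column. The C1q, Vsig4 and Cd163 ratios each span at most a 1.45-fold range. Timd4 to Clec4f runs from 0.0184 in knockout 1 to 0.0630 in knockout 3, and Marco to Clec4f reaches 0.474 in knockout 3.

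Genes shared by all macrophages followed a like order of livers. Of 16 pan-macrophage genes 15 were tested, 14 had a fold change above 0, 0 were called and 11 were lowest in control 1, with a median of 0.275 that was -0.133 without control 1 and 0.614 without control 2. The summed FPKM of the 10 Kupffer cell genes was 1.04, 1.03 and 1.08 times that of the pan-macrophage genes in knockouts and 1.07 and 1.03 times in controls. The ratio of these sums thus lay within a narrow range. It is weighted to abundant genes, such as Cd74, which held 138.65 of 345.4 FPKM in knockout 1 and 89.05 of 237.0 FPKM in control 1. It says little of low members such as Timd4. Set against the sum of 18 sinusoidal endothelial genes the Kupffer cell sum was 1.11, 1.8 and 1.57 times in knockouts and 0.870 and 1.63 times in controls, lowest in control 1. Ptprc, the leukocyte antigen CD45, had 3.05, 2.81 and 2.81 FPKM in knockouts and 1.73 and 2.06 FPKM in controls, without overlap (fold change 0.43, SE 0.13, limma adjusted p = 0.700). It was the 1 gene of the 15 with knockouts all above both controls, against 18.9% of all tested genes. The other 3 genes of the list with the smallest p, Cybb, Lyz2 and Fcer1g, had fold changes of 0.40, 0.47 and 0.28, and that of Fcer1g was -0.10 without control 1.

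Transcription factors that keep Kupffer cell identity were also examined. Of 10 such genes 9 had a fold change above 0, 0 were called, and 4 had knockout values all above both controls, against 18.9% of all tested genes. Id3 had 22.0, 19.2 and 20.9 FPKM in knockouts and 10.7 and 14.9 FPKM in controls. Its fold change was 0.67 (SE 0.15, interval 0.29 to 1.04), with an unadjusted p of 0.00421 and a limma adjusted p of 0.675, and it was 0.44 without control 1. Spic, which drives genes of red cell clearance, had 1.53, 2.0 and 1.58 FPKM in knockouts and 0.72 and 1.31 FPKM in controls (limma adjusted p = 0.704). The remaining 2 of the 4 were Id1 and Irf8 (named for this count, after its values were seen), with fold changes of 0.30 and 0.15. The median of the list was 0.182, with 0.101 without control 1 and 0.30 without control 2. Id1, Id3 and Nr1h3 are not particular to macrophages in liver, since endothelial cells or hepatocytes also carry them.

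Further surface and iron genes of Kupffer cells had fold changes above 0 in 6 of 10 cases, with 0 called and 7 lowest in control 1. Msr1, another scavenger receptor, had 5.86, 6.01 and 5.31 FPKM in knockouts and 3.92 and 4.51 FPKM in controls, without overlap (fold change 0.37, SE 0.12, limma adjusted p = 0.700). It was the 1 gene of the 10 with knockouts all above both controls, against 18.9% of all tested genes. Folr2 had 18.8, 21.2 and 18.4 FPKM in knockouts and 8.24 and 21.2 FPKM in controls, a fold change of 0.51 that was -0.12 without control 1. Hmox1, the heme oxygenase of red cell disposal, had a fold change of 0.29 (-0.09 without control 1), and Slc40a1, the iron exporter ferroportin, -0.15 (SE 0.22).

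Signals and neighbours of Kupffer cells gave no call either. Of 12 niche ligands 9 were tested, 6 with a fold change above 0 (median 0.104, with -0.017 without control 1 and 0.298 without knockout 1). Csf1, the growth factor of macrophages, had 3.19, 3.05 and 4.75 FPKM in knockouts and 2.14 and 2.84 FPKM in controls, without overlap (fold change 0.41, SE 0.20, limma adjusted p = 0.718). Cxcl12 also had knockouts all above both controls (fold change 0.29, SE 0.14). That made 2 of the 9, against 18.9% of all tested genes. Sinusoidal endothelial genes had fold changes above 0 in 10 of 18 cases (median 0.021, with 0.141 without control 1 and -0.052 without control 2), and control 1 was lowest in 3 of these 18, against 8 of the 10 Kupffer cell genes. Stellate cell genes were above 0 in 5 of 12 cases, with a median of -0.032 that lay between -0.103 and 0.181 with 1 library left out (highest without control 2). Hepatocyte genes were above 0 in 4 of 8 cases, with a median of 0.015 that lay between -0.063 and 0.06. Erythroid genes were above 0 in 6 of 6 cases, with a median of 1.584 that was 0.489 without knockout 1. Of the classical pathway partners of C1q, made mostly by hepatocytes, 6 of 8 were tested, 5 had a fold change above 0 and control 1 was lowest in 1, so that the low level of C1q in control 1 was not shared by most of its partners. Their median of 0.065 was -0.002 with median-of-ratios scaling and 0.141 without control 1.

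**Figure D5:**
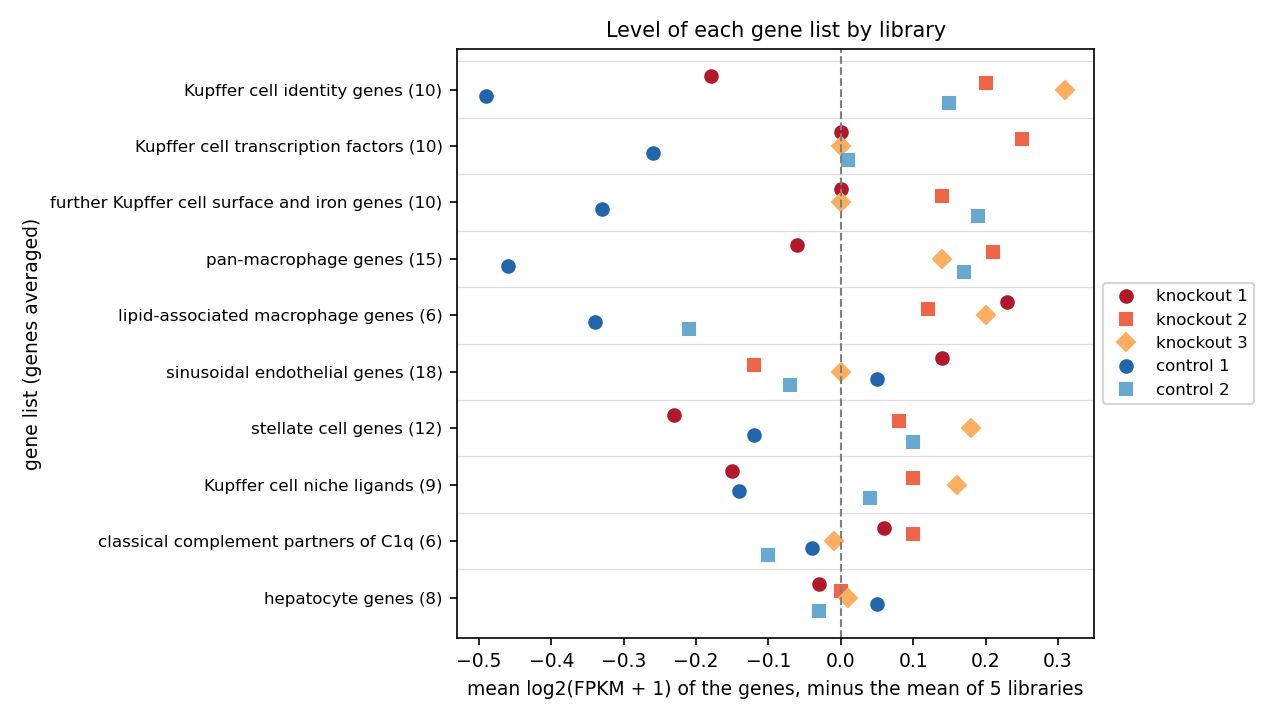
Mean log2(FPKM + 1) of the tested genes of each list relative to its mean over 5 libraries, 1 point per library (number of genes averaged in brackets). Control 1 lies lowest for the Kupffer cell and pan-macrophage genes, at -0.49 and -0.46. It is also lowest for lipid-associated macrophage genes (-0.34), further Kupffer cell surface and iron genes (-0.33) and Kupffer cell transcription factors (-0.26). It lies at 0.05 for sinusoidal endothelial and hepatocyte genes.

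Most genes of other myeloid cells and lymphocytes lay under the filter. Of 10 monocyte and recruited macrophage genes 4 passed the filter (3 with a fold change above 0), and the list summed to 14.9, 16.9 and 16.1 FPKM in knockouts and 11.2 and 19.2 FPKM in controls, control 1 again being lowest. Ccr2 and Cx3cr1, the chemokine receptors that define blood monocytes, were at most 0.57 and 0.35 FPKM in any liver. Neutrophil genes (2 of 10 tested) summed to 6.82, 11.3 and 5.97 FPKM in knockouts and 4.26 and 6.70 FPKM in controls, with Ly6g at 0 in all livers but knockout 2. Dendritic cell genes (2 of 8 tested) summed to between 2.76 and 4.42 FPKM, and lymphocyte genes (0 of 11 tested) to 6.45, 4.30 and 2.94 FPKM in knockouts and 2.10 and 2.96 FPKM in controls. The part of these cells in the low level of Kupffer cell genes in control 1 was not tested.

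Of 8 lipid-associated macrophage genes, which macrophages of fatty liver turn on, 6 were tested, 4 had a fold change above 0 and 0 were called. Among the 6, 3 were higher in all knockouts than in both controls, against 18.9% of all tested genes, and 1 was lower. Fabp5, a fatty acid carrier, had 45.6, 13.8 and 34.9 FPKM in knockouts and 10.8 and 6.96 FPKM in controls (fold change 1.59, SE 0.47, limma adjusted p = 0.700). Spp1, which encodes osteopontin and is also made by bile duct cells, had a fold change of 0.76 (SE 0.21), Lpl 0.55 (SE 0.23) and Cd63, the lower 1, -0.37 (SE 0.13). Trem2, the receptor that defines such macrophages, had 1.17, 2.04 and 0.46 FPKM in knockouts and 1.08 and 1.62 FPKM in controls. Its groups overlapped.

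The genes whose profile over the 5 livers was nearest to the average of the members depended on Marco. Against the average of all 10 members, among 5302 other tested genes with a wide enough range, they were Rgs2, Clec4a1, Lfng, Fermt3, Adgre4, Agfg2, Ctnnbip1 and Sdc3, with root mean square differences between 0.044 and 0.067 on the log2 scale. All 8 were highest in knockout 3, as the average is with Marco in it. Against the average of the 9 members other than Marco, a comparison added after seeing the data, they were Cd300ld, Hmox1, Themis2, Clec12a, Dynlt1f, Fcer1g, Dmpk and Cmtm7, with differences between 0.046 and 0.069. The 2 sets of 8 shared 0 genes, and 5 of the second set were highest in knockout 2. Cd300ld, the nearest without Marco, had 3.20, 4.35 and 3.93 FPKM in knockouts and 2.25 and 3.85 FPKM in controls. With 5 libraries such likeness is a description of these livers.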

How the data were processed

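RNA of 3 knockout and 2 control livers was sequenced in paired-end libraries, per the labels. The authors deposited FPKM per gene symbol, rounded to 2 decimals. The submitters' processing notes name HISAT2, StringTie, DESeq2 and mm10, with no versions or roles. Strand handling is not stated there. The 2 deposited tables held the same values in all 33589 rows. Whole reads were not recovered: between 23.7% and 29.5% of low values of short single-exon genes, by library, came within 0.1 of a multiple of 1 read.

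Here limma 3.58.1 (R 4.3.3, trended prior variance) was run on log2(FPKM + 1) of 10820 genes, those averaging at least 1 FPKM. Genotype was the only term, and Benjamini-Hochberg adjusted two-sided p-values over all these genes were read at 0.05. The log scale understates changes of low genes. Ratios were tested by exact permutation over 10 splits. Gene positions came from GENCODE M21, promoters from RefSeq.

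The members, the gene lists and the naming rule were chosen with earlier results of these data known. The rule names the members in every library, up to 4 genes of each list with the smallest unadjusted p, and the 8 genes nearest in profile; defining markers of other cell types were added after their values were seen. Erythroid, hepatocyte and stellate lists served as checks, and Hbb-b1, which held the same values as Hbb-bs, was left out. Alternatives were another pseudocount (0.1), filters (none, 0.1 and 5 FPKM), median-of-ratios scaling, quantile normalization, length correction, a replicate block and leaving out each library.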

Additional observations from a re-analysis of the deposited data

How the results depend on the processing

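The count of members called stayed at 0 in all alternatives run. Of 128 fold changes of members under an alternative, 113 kept their sign and 15 turned. These counts include values that could not differ. The filters choose genes and leave the fold change of a gene as it is. The replicate block gives the same fold changes as leaving out knockout 3, so its turns are counted again there. Without control 1, 7 members turned: Clec4f (-0.109), Vsig4 (-0.162), Timd4 (-0.237), Cd5l (-0.287), Adgre1 (-0.078), C1qb (-0.033) and C1qc (-0.233). Timd4 also turned with median-of-ratios scaling (-0.014), quantile normalization (-0.068), length correction (-0.042), the replicate block (-0.201), and without knockout 2 (-0.035) or knockout 3 (-0.201). Marco turned to -0.273 with the replicate block and without knockout 3. The cause was not tested. With 1 library left out, the highest values were 0.499 (Clec4f), 0.614 (Vsig4), 0.343 (Timd4), 0.759 (Cd5l), 0.955 (Marco), 0.776 (Adgre1), 0.684 (C1qb) and 0.586 (C1qc). Leaving out 1 library moved the median of the members between -0.093 and 0.604, the count of genes called between 0 and 1 (1 without control 1), and the log2 differences of the ratios between -0.602 and 0.285 (Timd4 to Clec4f), -0.561 and 0.779 (Marco to Vsig4), and 0.028 and 0.197 (C1q to Clec4f). Genes called were 0 with limma on all 5 libraries (757 at an unadjusted p below 0.05).

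Replicate numbers in the labels are not said to mark a litter or batch. Deviations from the group means correlated at 0.227 between knockout 1 and control 1 and at 0.196 between knockout 2 and control 2, over genes, with 2 such pairs. With 2 controls, their deviations are equal and of opposite sign, so both correlations rest on the same control difference. The replicate block, which leaves out knockout 3 for want of a partner, called 8 genes and 0 members, and gave -0.561 for the ratio of Marco to Vsig4.

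The 2 controls differed by more than the knockouts in most members, whereas in Marco, Timd4 and Cd163 the knockouts differed by more. The intervals of the members are wide, that of Marco most of all (SE 0.69), and a difference inside them is not excluded by these data.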
